A study of Mus musculus with 6 samples.

Results

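The mitochondrial solute carriers of the SLC25 family were taken as every gene whose symbol in the deposited table is Slc25a followed by a number. There were 35 such genes among the 10989 genes of the table, and all 35 were tested. RNA was sequenced from 6 libraries of mouse brain. The 3 Positive libraries came from cells sorted as positive for EGFP and CD31 and negative for CD11b, the gate the labels give for endothelial cells. The 3 Input libraries came from the dissociated brain suspension. All 6 libraries carry Tie2-cre and NuTRAP, a Cre-dependent reporter that puts EGFP on the ribosomes and mCherry on the nuclei of the cells where it is active, and all 6 titles carry the label WT. Each fraction has the replicate numbers 1222, 1223 and 1227. Age and sex are not in the labels used here. Tie2 is the product of Tek, and its promoter drives Cre in endothelial cells and also in some cells of the blood lineage, which the CD11b gate was set against. The series text calls the replicates biological, and the p-values below measure the spread between these libraries.

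SLC25 carriers are small membrane proteins, most of which sit in the inner membrane of mitochondria and exchange one metabolite for another between the matrix and the cytosol. Through them pass ADP and ATP, phosphate, the acids of the citrate cycle, amino acids, acylcarnitines, coenzymes and iron. Brain endothelial cells form the blood-brain barrier, and a dissociated brain also holds glia, neurons, pericytes and cells of the choroid plexus, so a carrier's level in Input is an average over many cell types.

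The sorted cells were high in the markers of their labelled type. All 6 endothelial markers listed (Pecam1, Cldn5, Flt1, Cdh5, Tek, Kdr) were higher in Positive, and their summed level was 14547 to 16035 CPM (counts scaled by library size and TMM factor) in Positive and 1832 to 2549 CPM in Input. Summed markers of oligodendrocytes stood at 587 to 1279 CPM in Positive and 17683 to 25341 CPM in Input. Those of astrocytes stood at 517 to 805 CPM in Positive and 5242 to 8133 CPM in Input, and those of neurons at 42.1 to 63.8 CPM in Positive and 413 to 523 CPM in Input. Microglia markers, which include Itgam, the gene of CD11b, summed to 1079 to 1897 CPM in Positive and 4923 to 9361 CPM in Input. Itgam itself was lower but present in Positive, at 88.0, 54.8 and 53.0 CPM, against 558, 274 and 506 CPM in Input. Pericyte markers went the other way, with 1188 to 1855 CPM in Positive and 614 to 749 CPM in Input. Perivascular macrophage markers summed to 2004, 727 and 288 CPM in Positive libraries 1222, 1223 and 1227, against 276, 311 and 235 CPM in the Input libraries of the same numbers. Both sums were higher in each Positive library than in the Input library of the same number. The macrophage sum varied widely between Positive libraries. The part of these cells in the rises of carriers was not tested. No listed marker of any type was at 0 in all Positive libraries. The total count was 23525401, 4772866 and 19708830 in Positive libraries 1222, 1223 and 1227 and 31607627, 4814966 and 52283556 in the matching Input libraries, so values of the 1223 libraries carry the most counting error.

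The family as a whole took less of the RNA in the sorted cells. Summed over the 35 carriers, the level was 1559, 1613 and 1710 CPM in Positive and 2259, 2137 and 2499 CPM in Input. Every Positive library lay below every Input library, a log2 difference of -0.50 with an exact two-sided permutation p of 0.1, the smallest that 3 against 3 libraries allow. Slc25a3, Slc25a4 and Slc25a5, the phosphate carrier and both major ADP/ATP carriers, made up 38.2% of the family's CPM in Positive and 44.0% in Input. In bulk libraries like these, fewer cells of a type and less RNA per cell cannot be told apart.

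Gene by gene, 6 of the 35 carriers were higher in Positive and 14 were lower at an adjusted p under 0.05 (edgeR quasi-likelihood test, Benjamini-Hochberg over all 10989 genes), and 15 did not pass. The share of all genes tested that passed was 26.1% higher and 29.4% lower, so the carriers' 17.1% higher lies under that background and their 40% lower lies over it. In either direction 20 of 35 passed, against 55.5% of all genes. With a log2 fold change of at least 1 besides, 2 carriers rose (Slc25a24, Slc25a32) and 7 fell (Slc25a4, Slc25a13, Slc25a18, Slc25a23, Slc25a27, Slc25a29, Slc25a33), against 12.6% and 22.0% of all genes. The median log2 fold change of the carriers was -0.305, against 0.029 over all genes. The table holds genes whose raw value reached 50 in all libraries of at least 1 fraction. Of the carriers, 26 reached it in both fractions, 6 in Input only (Slc25a13, Slc25a18, Slc25a26, Slc25a27, Slc25a29, Slc25a33) and 3 in Positive only (Slc25a30, Slc25a32, Slc25a40). The minimum acts on unscaled values of libraries of unequal depth. A gene that entered through 1 fraction was selected for reaching the minimum there, so the directions of these 9 carriers are not free of that choice. The same limit holds for genes of the lists below that entered through 1 fraction. Among the 26 carriers that reached it in both, 4 were higher and 9 lower with a median of -0.257. Among all 8509 such genes 30.4% were higher and 19.9% lower, with a median of 0.155. RefSeq lists 47 protein-coding Slc25a genes, and the 12 that are not among the 35 (Slc25a2, Slc25a14, Slc25a21, Slc25a31, Slc25a34, Slc25a41, Slc25a43, Slc25a47, Slc25a48, Slc25a51, Slc25a53 and Slc25a54) were not analysed here.

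**Figure D1:**
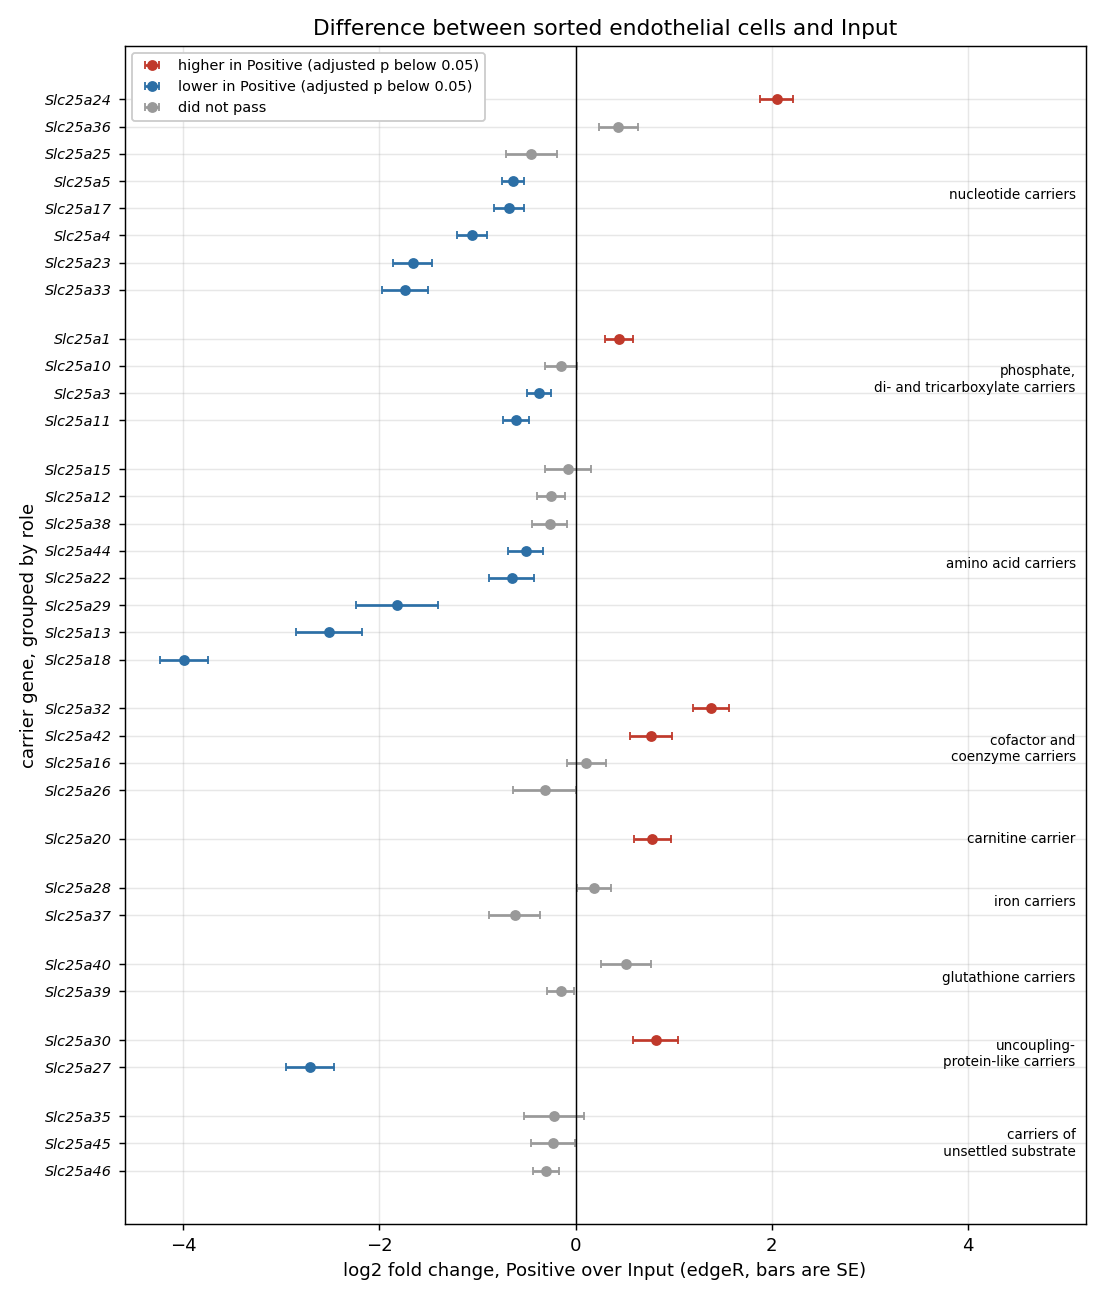
Log2 fold change of Positive over Input with its standard error for each carrier named with a value in the text, grouped by the substrate they carry, 3 libraries a fraction, with the colour giving the call of the edgeR test. Slc25a24 stands highest at 2.05 and Slc25a18 lowest at -3.99.

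The promoters of 4 carriers are shown to set the largest rise and the largest fall beside a pair of the most abundant carriers. Each is the 250 bases before the gene's start in the RefSeq promoter table (build GRCm38.p6), written 5′ to 3′ on the gene's own strand. Capitals mark matches to CCGGAAG, the core of sites bound by ETS factors such as NRF2, or to the NRF1 site (GCGC, any base, then TGCGC), both searched on both strands. These factors are known regulators of nuclear genes for mitochondrial proteins.
Slc25a24, chr3:109122899-109123148, plus strand: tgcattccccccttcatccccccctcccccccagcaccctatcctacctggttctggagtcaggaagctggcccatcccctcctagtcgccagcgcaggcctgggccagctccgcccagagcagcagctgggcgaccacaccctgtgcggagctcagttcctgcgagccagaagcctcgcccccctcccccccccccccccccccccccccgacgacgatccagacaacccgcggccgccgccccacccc
Slc25a18, chr6:120773518-120773767, plus strand: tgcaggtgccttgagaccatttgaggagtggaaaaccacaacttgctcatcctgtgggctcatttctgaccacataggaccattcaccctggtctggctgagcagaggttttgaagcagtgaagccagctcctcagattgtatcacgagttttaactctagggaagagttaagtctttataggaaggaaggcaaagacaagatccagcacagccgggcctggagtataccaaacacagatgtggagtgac
Slc25a4, chr8:46211063-46211312, minus strand: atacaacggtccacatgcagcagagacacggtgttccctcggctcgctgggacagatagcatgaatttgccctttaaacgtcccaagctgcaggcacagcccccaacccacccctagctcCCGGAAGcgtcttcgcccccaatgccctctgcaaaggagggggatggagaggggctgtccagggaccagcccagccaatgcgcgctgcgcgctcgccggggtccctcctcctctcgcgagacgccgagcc
Slc25a3, chr10:91123968-91124217, minus strand: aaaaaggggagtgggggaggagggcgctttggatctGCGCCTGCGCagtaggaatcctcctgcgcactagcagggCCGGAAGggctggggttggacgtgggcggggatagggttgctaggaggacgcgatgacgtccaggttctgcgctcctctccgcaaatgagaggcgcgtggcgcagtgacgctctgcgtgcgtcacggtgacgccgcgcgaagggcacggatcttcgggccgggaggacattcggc

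The windows of Slc25a24 and Slc25a18 hold neither motif, that of Slc25a4 holds CCGGAAG, and that of Slc25a3 holds both. The windows of Slc25a5, Slc25a1 and Slc25a39, also among the most abundant carriers, hold neither, so the pair shown does not stand for the abundant carriers. They also differ in base composition. The Slc25a18 window has 2 CpG sites and 48.8% G and C, and the Slc25a24 window has 14 CpG sites and 72.8% G and C. RefSeq promoters were matched for 27 of the 35 carriers. A gene with several promoters was counted as holding a motif if any of them did. CCGGAAG was present in 5 of the 27 (18.5%), against 15% of 8244 genes in the table and 7.83% of all 27025 genes with a RefSeq promoter. The NRF1 site was present in 1 of the 27 (3.7%), against 9.33% and 4.23% in those sets. With the highest number of CpG sites in any promoter of a gene, the median was 17 in the carriers and 17 in the table's genes. It was 6 in all genes with a RefSeq promoter. A match of letters in these windows is a description of the sequence only.

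Nucleotide carriers moved in both directions. Slc25a24, Slc25a23 and Slc25a25 encode the calcium-regulated ATP-Mg/phosphate carriers, which set the adenine nucleotide pool of the matrix. Slc25a24 (chr3:109123149-109168409, plus strand) had 69.4, 70.7 and 85.6 CPM in Positive, against 17.1, 21.4 and 16.5 CPM in Input. The fractions do not overlap, and the means were 75.3 ± 9.0 CPM in Positive and 18.3 ± 2.65 CPM in Input (SD, n = 3 each). The fitted fold change was 4.14, or 2.05 ± 0.17 (SE) on the log2 scale, with an adjusted p of 1.64e-05 (edgeR). Slc25a23 went the other way, with 51.1, 38.4 and 57.6 CPM in Positive, against 149, 129.9 and 189 CPM in Input. Its log2 fold change was -1.66 ± 0.20 (edgeR adjusted p = 0.000143). Slc25a25 had 33.6, 18.0 and 23.6 CPM in Positive, against 43.2, 29.6 and 30.8 CPM in Input. Its groups overlap and its log2 difference of -0.45 ± 0.26 did not pass (edgeR adjusted p = 0.168), although it passed with the replicate number as a block (-0.47, adjusted p = 0.031) and without Positive library 1222 (-0.71, adjusted p = 0.0418).

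Slc25a4 and Slc25a5 encode the ADP/ATP carriers ANT1 and ANT2, which export the ATP made in the matrix. Slc25a4 (chr8:46207341-46211009, minus strand) had 180.3, 187 and 238 CPM in Positive, against 379, 417 and 462 CPM in Input. Slc25a5 (chrX:36795652-36798806, plus strand) had 177, 187 and 188 CPM in Positive, against 275, 277 and 304 CPM in Input. Neither gene's fractions overlap. Slc25a4 was lower by more, with a log2 fold change of -1.05 ± 0.15 (edgeR adjusted p = 0.000446) against -0.63 ± 0.11 for Slc25a5 (adjusted p = 0.00154). These genes resemble each other and have related copies elsewhere, and the labels do not say how shared reads were split between them.

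The pyrimidine nucleotide carriers parted, though Slc25a33 reached the deposited minimum in Input only, so its direction is not free of that filter. Slc25a33 had 11.4, 10.2 and 11.1 CPM in Positive, against 35.2, 26.8 and 47.3 CPM in Input, a log2 fold change of -1.74 ± 0.23 (edgeR adjusted p = 0.000282). Slc25a36 had 27.6, 37.9 and 27.4 CPM in Positive, against 25.3, 19.6 and 22.8 CPM in Input. Its fractions do not overlap, but the log2 difference of 0.44 ± 0.20 did not pass (edgeR adjusted p = 0.0886). With limma on the deposited log2 values it passed at 0.52. Slc25a17, a carrier of coenzyme A and related nucleotides in peroxisomes rather than mitochondria, was lower in Positive (33.6 ± 2.54 CPM in Positive and 54.4 ± 7.41 CPM in Input, SD, n = 3 each, log2 fold change -0.68 ± 0.15, edgeR adjusted p = 0.00518). In all, 1 of the 8 nucleotide carriers rose and 5 fell, against 26.1% and 29.4% of all genes.

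**Figure D2:**
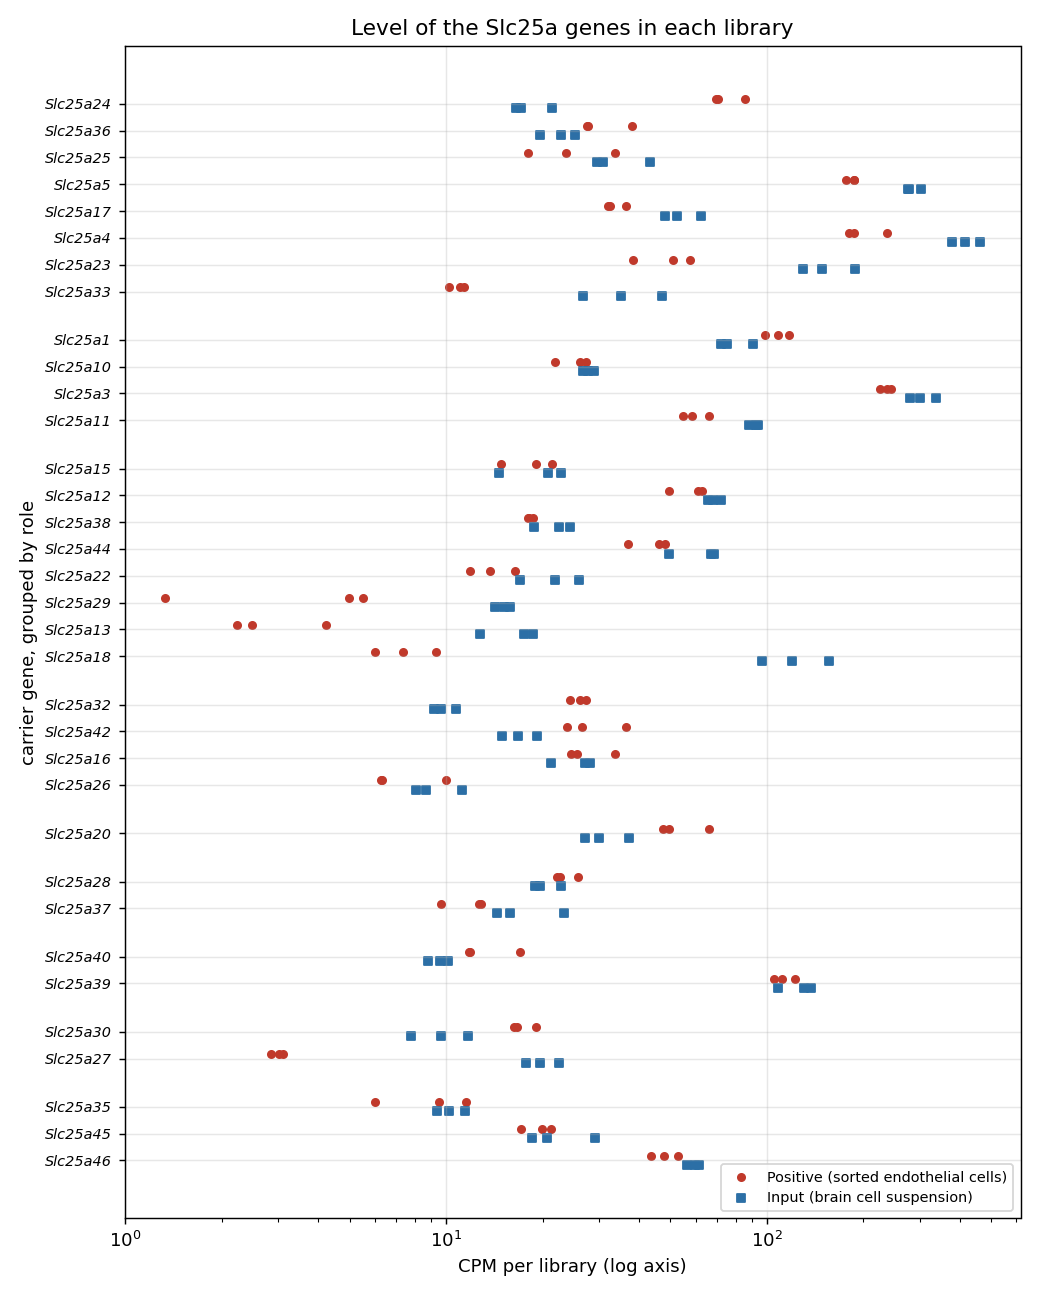
Level of each carrier named with a value in the text in each library, in CPM on a log axis, with Positive above Input in each row. The highest values belong to Slc25a4, Slc25a5 and Slc25a3, and Slc25a18 lies at 5.99 to 9.32 CPM in the Positive libraries, against 96.5 to 156 CPM in the Input ones.

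Amino acid carriers showed falls and no rise: 5 of 8 were lower in Positive, none was higher by the edgeR test, and 3 did not pass. Of all genes 29.4% were lower and 26.1% higher. Among the 5, Slc25a13, Slc25a18 and Slc25a29 reached the deposited minimum in Input only, so their directions are not free of that filter. Slc25a18 and Slc25a22 encode glutamate carriers, which bring glutamate with a proton into the matrix. Slc25a18 (chr6:120773768-120793982, plus strand) had 7.33, 5.99 and 9.32 CPM in Positive, against 120.1, 96.5 and 156 CPM in Input. That is the largest difference in the family, 15.9-fold lower in the fit, with a log2 fold change of -3.99 ± 0.24 (edgeR adjusted p = 4.51e-06). Behind it stand 162, 27 and 176 counts in Positive and 4108, 483 and 8534 counts in Input. Slc25a18 is known as a carrier of astrocytes, whose summed markers were 0.103 of the Input level in Positive. The part of the cell mixture in this difference was not tested. Slc25a22 had 13.7, 16.4 and 11.9 CPM in Positive, against 26.0, 17.0 and 21.9 CPM in Input. The fractions are close, and its log2 fold change was -0.65 ± 0.23 (edgeR adjusted p = 0.0403). That call was lost without Positive 1222 (-0.64), Positive 1227 (-0.54), Input 1222 (-0.49) or Input 1227 (-0.64), and with the replicate block (-0.65, adjusted p = 0.0525). With limma on the deposited log2 values Slc25a22 did not pass either.

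Slc25a12 and Slc25a13 encode the aspartate/glutamate carriers aralar and citrin, which feed the malate-aspartate shuttle. Slc25a13 had 2.49, 4.21 and 2.22 CPM in Positive, against 18.6, 12.8 and 17.5 CPM in Input, 5.72-fold lower (log2 fold change -2.52 ± 0.34, edgeR adjusted p = 0.000274). Its counts were low in Positive, at 55, 19 and 42, against 637, 64 and 956 in Input. Slc25a12 had 49.6, 61.0 and 62.9 CPM in Positive, against 67.9, 65.7 and 72.0 CPM in Input. Every Positive library was below every Input library, but the log2 difference of -0.25 ± 0.14 did not pass (edgeR adjusted p = 0.165). It passed when libraries were scaled by their size alone (-0.40).

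Slc25a29, a carrier of basic amino acids, had 4.97, 1.33 and 5.51 CPM in Positive, against 14.2, 15.2 and 15.9 CPM in Input. Its log2 fold change was -1.82 ± 0.42 (edgeR adjusted p = 0.00561), and the lowest value rests on 6 counts in Positive library 1223. Slc25a44, which carries branched-chain amino acids, was lower at 36.9 to 48.3 CPM in Positive, against 49.7 to 68.5 CPM in Input (log2 fold change -0.51 ± 0.18, edgeR adjusted p = 0.0379). That call was lost without Positive 1227 (-0.39), Input 1222 (-0.45, adjusted p = 0.103) or Input 1227 (-0.43), and with limma on the deposited log2 values. Slc25a38, the glycine carrier used in heme synthesis, had a log2 difference of -0.26 ± 0.18 (edgeR adjusted p = 0.247). Slc25a15, the ornithine carrier, was nearly level at -0.08 ± 0.23 (edgeR adjusted p = 0.8).

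Genes of glutamate metabolism were set beside these carriers. Of 5 tested, 1 was higher and 3 were lower, against 26.1% and 29.4% of all genes, with a median log2 fold change of -0.629. Without both 1227 libraries 1 was lower. Oat, which makes glutamate semialdehyde from ornithine, was lower (54.0 ± 8.82 CPM in Positive and 155.6 ± 31.5 CPM in Input, SD, n = 3 each, log2 fold change -1.52 ± 0.19, edgeR adjusted p = 0.000181).

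Enzymes of the malate-aspartate and glycerol phosphate shuttles carry cytosolic NADH electrons to mitochondria. Of 7 tested, 1 was higher and 4 were lower, against 26.1% and 29.4% of all genes. Their median log2 fold change was -0.398. With at least 50 counts in every library 5 were left, without Gpd1 and Got1, of which 1 was higher and 2 lower. Gpd1, the cytosolic glycerol phosphate dehydrogenase, had the largest fall, at 7.78, 3.33 and 9.58 CPM in Positive, against 163, 130.3 and 152 CPM in Input (log2 fold change -4.32 ± 0.30, edgeR adjusted p = 7.73e-06). Gpd2, its partner in the inner membrane, had the rise, at 364, 377 and 333 CPM in Positive, against 140 to 152 CPM in Input (log2 fold change 1.29 ± 0.12, edgeR adjusted p = 3.03e-05). Of the transaminases that serve the aspartate carriers, cytosolic Got1 was lower (-2.40 ± 0.30, edgeR adjusted p = 0.000166) and mitochondrial Got2 was at -0.02 ± 0.13 (adjusted p = 0.9).

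Among the phosphate and carboxylate carriers, 1 of 4 was higher in Positive and 2 were lower, against 26.1% and 29.4% of all genes. Slc25a3 imports the phosphate that ATP synthase uses. It had 226, 238 and 244 CPM in Positive, against 299.9, 281 and 337 CPM in Input. The fractions do not overlap, but the fall is small (log2 fold change -0.37 ± 0.12, edgeR adjusted p = 0.03). It no longer passed without Positive 1222 (-0.34), Positive 1223 (-0.38), Positive 1227 (-0.40), Input 1222 (-0.39) or Input 1227 (-0.30). With limma on the deposited log2 values Slc25a3 did not pass either. Slc25a1 exports citrate to the cytosol. It had 98.9, 108 and 117 CPM in Positive, against 71.9, 75.1 and 90.8 CPM in Input, with a log2 fold change of 0.45 ± 0.14 (edgeR adjusted p = 0.0265). That call is also a thin one: it was lost without Positive 1223 (0.44, adjusted p = 0.061), Positive 1227 (0.38), Input 1222 (0.38) or Input 1223 (0.41), and with libraries scaled by size alone (0.29). Slc25a11, the oxoglutarate/malate carrier, was lower at 55.0 to 66.3 CPM in Positive, against 87.9 to 94.1 CPM in Input (log2 fold change -0.61 ± 0.13, edgeR adjusted p = 0.00382). Without both 1227 libraries it missed the threshold (-0.58, adjusted p = 0.0714). Slc25a10, the dicarboxylate carrier, had a log2 difference of -0.15 ± 0.16 (edgeR adjusted p = 0.466).

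Of 7 genes of citrate synthesis and use, none was higher and 6 were lower by the edgeR test, against 26.1% and 29.4% of all genes. Their median log2 fold change was -0.89. With at least 50 counts in every library 6 were left, without Me1, and 5 of them were lower. Citrate synthase (Cs) had 151 ± 11.4 CPM in Positive and 275 ± 33.7 CPM in Input (SD, n = 3 each, log2 fold change -0.86 ± 0.14, edgeR adjusted p = 0.00073). Me1, the cytosolic malic enzyme, fell the most, at 11.9, 4.21 and 15.4 CPM in Positive, against 91.8, 66.7 and 105 CPM in Input (log2 fold change -2.98 ± 0.38, edgeR adjusted p = 0.000192). Slc25a1 and these partners thus had opposite signs.

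Of the cofactor carriers, 2 of 5 were higher in Positive, against 26.1% of all genes. Slc25a32 reached the deposited minimum in Positive only and Slc25a26 in Input only, so their directions are not free of that filter. Slc25a32, which carries folate and FAD, had 27.3, 26.2 and 24.4 CPM in Positive, against 10.7, 9.19 and 9.61 CPM in Input (chr15:39094191-39112716, minus strand). The means of 25.9 ± 1.49 CPM in Positive and 9.84 ± 0.795 CPM in Input (SD, n = 3 each) gave a fitted fold change of 2.61, or 1.38 ± 0.19 on the log2 scale (edgeR adjusted p = 0.000285). Slc25a42, a coenzyme A carrier, had 23.9, 36.4 and 26.5 CPM in Positive, against 16.7, 19.2 and 14.9 CPM in Input (log2 fold change 0.77 ± 0.22, edgeR adjusted p = 0.0152). Without Input library 1227 it did not pass (0.68, adjusted p = 0.0655). Slc25a16, linked to coenzyme A, and Slc25a26, the S-adenosylmethionine carrier, did not pass, with log2 differences of 0.11 ± 0.20 and -0.32 ± 0.32 (edgeR adjusted p = 0.654 and 0.425).

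Slc25a20, which exchanges acylcarnitines for carnitine and so admits long-chain fatty acids to the matrix, was higher in the sorted cells. It had 49.5, 47.4 and 65.9 CPM in Positive, against 29.9, 27.2 and 37.1 CPM in Input. The means of 54.3 ± 10.1 CPM in Positive and 31.4 ± 5.14 CPM in Input (SD, n = 3 each) gave a fitted fold change of 1.72 (log2 fold change 0.78 ± 0.19, edgeR adjusted p = 0.00722). Of 10 other genes of the carnitine shuttle and fatty acid oxidation, 3 were higher and 1 was lower, against 26.1% and 29.4% of all genes. Their median log2 fold change was -0.068. With at least 50 counts in every library 9 were left, without Cpt1c, of which 2 were higher and 3 lower. Without both 1227 libraries 1 was higher, there were 4 lower without Input library 1223, and 2 were lower with the replicate block. Cpt1a, which makes the acylcarnitines at the outer membrane, was the highest riser at 415 ± 26.7 CPM in Positive and 183 ± 20.1 CPM in Input (SD, n = 3 each, log2 fold change 1.18 ± 0.13, edgeR adjusted p = 9.96e-05). Cpt1c, the form known from neurons, was the one that fell, with 2.49, 7.10 and 2.01 CPM in Positive, against 21.2, 26.6 and 27.2 CPM in Input (log2 fold change -2.84 ± 0.45, edgeR adjusted p = 0.000707). Cpt2, which acts after Slc25a20 inside the matrix, had a log2 difference of 0.13 ± 0.21 (edgeR adjusted p = 0.634).

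Neither iron carrier passed the test. Slc25a28 (mitoferrin 2) had 22.2, 25.7 and 22.7 CPM in Positive, against 19.6, 19.0 and 22.9 CPM in Input (log2 difference 0.19 ± 0.17, edgeR adjusted p = 0.39). Slc25a37 (mitoferrin 1), the form of developing red cells, had 12.7, 12.9 and 9.64 CPM in Positive, against 23.4, 14.4 and 15.8 CPM in Input (log2 difference -0.62 ± 0.26, edgeR adjusted p = 0.072). Slc25a28 overlaps between the fractions and Slc25a37 does not, and Slc25a37 passed without Input library 1223 (-0.74, adjusted p = 0.0484) and with libraries scaled by size alone (-0.78). Of 16 genes for heme, iron-sulfur clusters and mitochondrial iron, 1 was higher and 4 were lower (8 with libraries scaled by size alone), with a median of -0.36. Of all genes 26.1% were higher and 29.4% lower. The first step of heme synthesis split by gene. Alas1, the housekeeping form, had 369, 350 and 473 CPM in Positive, against 100.2, 85.5 and 114 CPM in Input (log2 fold change 1.99 ± 0.17, edgeR adjusted p = 2.14e-05). Alas2, the red cell form, had 59.8, 39.0 and 91.8 CPM in Positive, against 315, 313 and 294 CPM in Input (log2 fold change -2.26 ± 0.27, edgeR adjusted p = 0.00015).

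The glutathione carriers did not pass either. Slc25a39 was among the most abundant members, with 106, 112 and 122 CPM in Positive, against 131, 108 and 138 CPM in Input (log2 difference -0.15 ± 0.14, edgeR adjusted p = 0.381). Slc25a40 had 11.9, 11.8 and 17.0 CPM in Positive, against 10.2, 9.59 and 8.79 CPM in Input (log2 difference 0.51 ± 0.25, edgeR adjusted p = 0.114). Its fractions do not overlap, and limma on the deposited log2 values put it past the threshold at 0.56. Slc25a40 reached the deposited minimum in Positive only, so its direction is not free of that filter.

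The carriers related to uncoupling proteins went opposite ways. Slc25a27 reached the deposited minimum in Input only and Slc25a30 in Positive only, so their directions are not free of that filter. Slc25a27, also called UCP4 and known from brain, had 2.85, 3.10 and 3.02 CPM in Positive, against 19.6, 22.6 and 17.8 CPM in Input, 6.53-fold lower (log2 fold change -2.71 ± 0.25, edgeR adjusted p = 3.03e-05). The Positive values rest on 63, 14 and 57 counts. Slc25a30 had 16.3 to 19.0 CPM in Positive, against 7.79 to 11.7 CPM in Input (log2 fold change 0.82 ± 0.23, edgeR adjusted p = 0.0163). That rise was lost without Positive 1222 (0.74, adjusted p = 0.0585) or Input 1227 (0.80, adjusted p = 0.0612). Ucp2, a family member under another symbol, was higher at 477 ± 46.2 CPM in Positive and 299.7 ± 21.6 CPM in Input (SD, n = 3 each, log2 fold change 0.67 ± 0.13, edgeR adjusted p = 0.00248). Without both 1227 libraries Ucp2 stood at 0.61 with an adjusted p of 0.0573. The carrier relatives of the outer membrane, Mtch1 and Mtch2, had log2 differences of -0.18 ± 0.14 (edgeR adjusted p = 0.297) and -0.57 ± 0.15 (adjusted p = 0.0125), and Mtch2 did not pass without Input library 1227 (-0.52, adjusted p = 0.0522).

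None of the 3 carriers whose substrate is unsettled passed the edgeR test as run. Slc25a46, an outer membrane protein tied to mitochondrial shape, had a log2 difference of -0.31 ± 0.13 (adjusted p = 0.0835). Its fractions do not overlap, and it passed with libraries scaled by size alone (-0.46, adjusted p = 0.0209) and with 50 counts in every library (-0.445, adjusted p = 0.0225). Slc25a45 and Slc25a35 stood at -0.23 ± 0.22 (adjusted p = 0.405) and -0.22 ± 0.31 (adjusted p = 0.57).

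Comparing related carriers inside each library removes the scaling between libraries. There were 8 such pairs, and in all 8 the ratio in every Positive library lay on one side of that in every Input library. Each has an exact two-sided permutation p of 0.1, the smallest possible here, and 0.1 after Benjamini-Hochberg adjustment over the 8 pairs. The share over other gene pairs was not measured, and 64.4% of all single genes did not overlap between the fractions. The pairs Slc25a24/Slc25a23 and Slc25a25/Slc25a23 share a gene, so the 8 are not independent. In 4 of the pairs a member reached the deposited minimum in 1 fraction only (Slc25a13, Slc25a18 and Slc25a33 in Input, Slc25a40 in Positive), so the direction of those ratios is not free of that filter. Slc25a24 gave 1.36, 1.84 and 1.49 counts per count of Slc25a23 in Positive, against 0.115, 0.165 and 0.0876 in Input, a 13.1-fold difference of the ratio. Per kilobase of exon too, Slc25a24 was ahead in Positive (21.9 CPM per kilobase, against 9.26 for Slc25a23) and Slc25a23 in Input (29.4, against 5.35 for Slc25a24). Slc25a22 gave 1.87, 2.73 and 1.27 counts per count of Slc25a18 in Positive, against 0.216, 0.176 and 0.140 in Input, 10.7-fold higher. Slc25a36 to Slc25a33 was 2.43, 3.71 and 2.48 in Positive, against 0.718, 0.732 and 0.483 in Input, 4.45-fold higher. These ratios of counts also carry the genes' lengths. Per kilobase of all annotated exons, Slc25a18 and Slc25a33 stayed ahead of their partners in both fractions. The values in Positive were 3.95 CPM per kilobase for Slc25a18 and 2.33 for Slc25a22, and 5.76 for Slc25a33 and 3.23 for Slc25a36. The lengths used were 1911 bases for Slc25a18 and 5992 for Slc25a22, and 1887 for Slc25a33 and 9594 for Slc25a36. Such lengths can exceed those of the transcripts present, so which gene of these pairs is more abundant in Positive is not settled here.

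The other 5 pairs shifted as follows. The log2 ratio of Slc25a13 to Slc25a12 was -4.32 ± 0.48 in Positive and -2.09 ± 0.25 in Input (SD, n = 3 each). That of Slc25a25 to Slc25a23 was -0.995 ± 0.35 in Positive and -2.18 ± 0.42 in Input, and that of Slc25a40 to Slc25a39 was -3.08 ± 0.21 in Positive and -3.71 ± 0.24 in Input (SD, n = 3 each). Slc25a5 to Slc25a4 stood at -0.12 ± 0.19 in Positive and -0.55 ± 0.08 in Input (SD, n = 3 each), so the balance of the ADP/ATP carriers lay further toward Slc25a5 in Positive. Slc25a37 to Slc25a28 stood at -1.01 ± 0.22 in Positive and -0.23 ± 0.42 in Input (SD, n = 3 each).

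**Figure D3:**
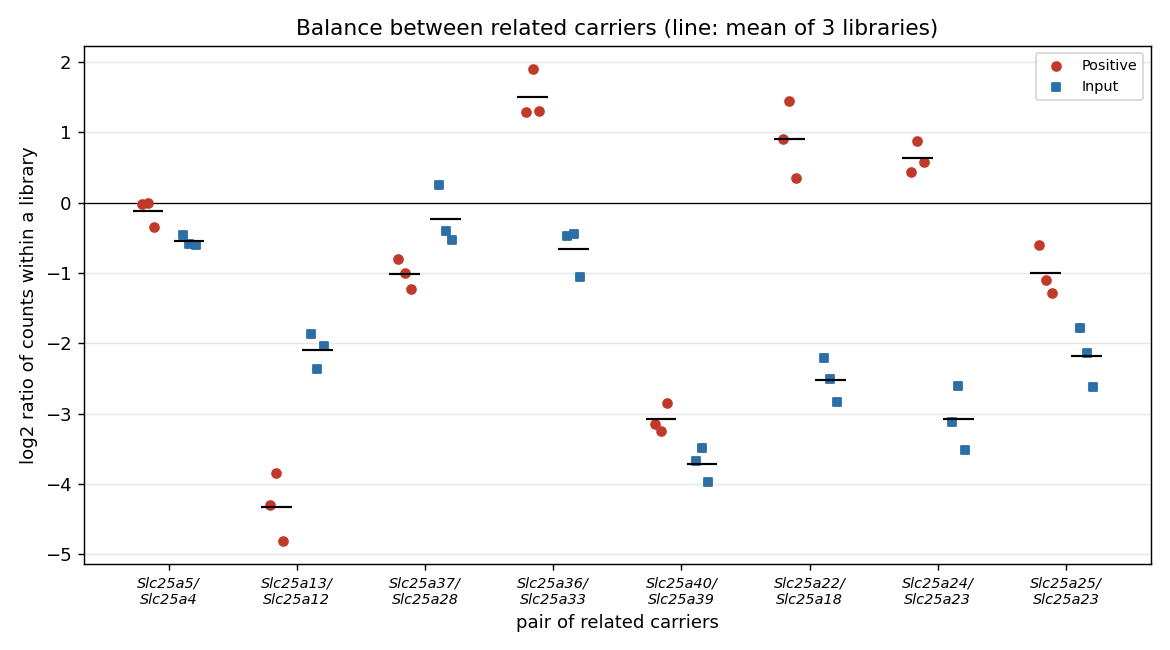
Log2 ratio of counts of 2 related carriers within each library, for 8 pairs, with Positive left of Input; points are libraries and each bar is the mean of 3. The ratio of Slc25a24 to Slc25a23 is above 0 in every Positive library and below 0 in every Input library.

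The length used per kilobase of exon is the union of all annotated exons of a gene. It can exceed the length of the transcripts, so the order between genes depends on the annotation. On this scale the order of the carriers was led by Slc25a5 (112 CPM per kilobase), Slc25a4 (85.8), Slc25a1 (50.0), Slc25a3 (42.6) and Slc25a39 (41.1) in Positive. In Input it was led by Slc25a4 (178), Slc25a5 (173), Slc25a18 (65.0), Slc25a3 (55.1) and Slc25a39 (45.6). Slc25a18 held rank 3 in Input and rank 23 of 35 in Positive, at 3.95 CPM per kilobase. Slc25a24 held rank 7 in Positive, at 21.9 CPM per kilobase, and rank 21 in Input, at 5.35. Differences between neighbours in this order were not tested.

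Across the family, the fractions do not overlap for 8 carriers with Positive above and 18 with Positive below, against 31.8% and 32.6% of all genes. They overlap for 9, so 26 do not, against 64.4% of all genes. All 20 carriers that passed kept 1 direction in all 3 replicate numbers. The calls rest on the same libraries, so this is no separate support, and the share over all passing genes was not measured. Of the 20 carriers, 12 kept their call in every setting that could test them: Slc25a20, Slc25a24 and Slc25a32 among those higher, and Slc25a4, Slc25a5, Slc25a13, Slc25a17, Slc25a18, Slc25a23, Slc25a27, Slc25a29 and Slc25a33 among those lower. The requirement of 50 counts in every library could not test 6 of these 12 (Slc25a13, Slc25a18, Slc25a27, Slc25a29, Slc25a32 and Slc25a33). These 6 are also ones that reached the deposited minimum in 1 fraction only. Exons of some carriers overlap a gene on the other strand. The shared bases were 1151 for Slc25a35 and Rangrf, 383 for Slc25a46 and B930094E09Rik, 379 for Slc25a25 and Naif1, and 281 for Slc25a33 and Gm13068. Slc25a37 shared 381 bases with Gm31748 and 92 with Gm27223. Slc25a10 shared 228 with Gm11788, Slc25a11 189 with Rnf167, Slc25a23 168 with Gm17168, Slc25a26 144 with Lrig1, and Slc25a18 32 with Atp6v1e1. The kit was directional, but neither labels nor headers say whether strand was used in counting, so those values may hold reads of the partner.

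Other transporters of the inner membrane for pyruvate, serine and calcium had 2 higher and 5 lower of 8, against 26.1% and 29.4% of all genes. Their median log2 fold change was -0.658. With at least 50 counts in every library 7 were left, without Ccdc109b, of which 1 was higher and 5 lower. Without both 1227 libraries 0 were higher and 4 lower. Mpc1, a subunit of the pyruvate carrier, was lower at 30.5 ± 2.64 CPM in Positive and 79.1 ± 5.02 CPM in Input (SD, n = 3 each, log2 fold change -1.38 ± 0.14, edgeR adjusted p = 4.99e-05). Its partner Mpc2 was lower too (log2 fold change -0.77 ± 0.18, edgeR adjusted p = 0.00557). Sfxn5, a sideroflexin, fell the most (39.0 ± 8.83 CPM in Positive and 280 ± 119 CPM in Input, SD, n = 3 each, log2 fold change -2.83 ± 0.33, edgeR adjusted p = 0.000125). Ccdc109b, a form of the calcium uniporter pore, rose the most (12.7 ± 3.66 CPM in Positive and 4.59 ± 0.589 CPM in Input, SD, n = 3 each, log2 fold change 1.43 ± 0.33, edgeR adjusted p = 0.00571). It did not pass without both 1227 libraries (1.43, adjusted p = 0.069).

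**Figure D4:**
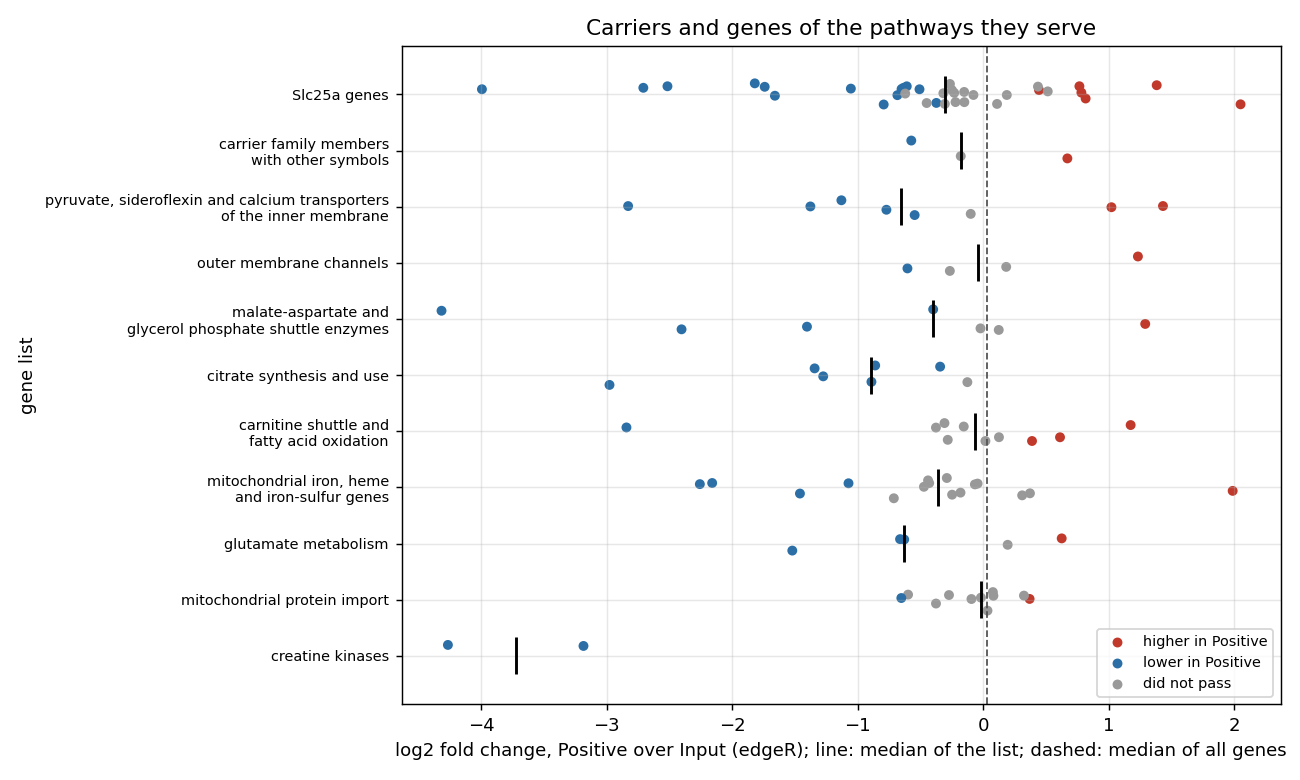
Log2 fold change of Positive over Input for the Slc25a carriers and for each list of mitochondrial genes set beside them; points are genes and the bar of each row is its median. The medians run from -3.725 for creatine kinases to -0.018 for protein import, with the carriers at -0.305.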

How the data were processed

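RNA of 6 libraries was used, 3 Positive and 3 Input, grouped by their titles. The deposited table gives estimated counts per gene (raw columns; 5.8% of values are within 0.001 of a whole number) and log2 normalised values, per the file headers. The authors kept genes with a raw value of at least 50 in all libraries of at least 1 condition, per the file headers, and all 10989 genes meet this. Taking the log2 of a raw value and adding 1 term per library and 1 per gene gives the deposited log2 value, with a departure of at most 5.36e-07 for 99% of values and 1.13 at most. Per the submitters' processing notes the build was mm10 and the tools include DESeq. Aligner, counter and strand use: not given in the sources used here.

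Estimated counts were rounded. In edgeR 4.0.16, run in R 4.3.3, filterByExpr at a minimum count of 10 removed 0 genes, TMM factors scaled the libraries, and the quasi-likelihood test was run of Positive over Input with fraction as the only term and a prior count of 2. P-values were adjusted over all genes and the threshold was 0.05. The biological coefficient of variation was 21.6%. CPM use the TMM factors (0.94 to 1.082). The standard error is the log2 fold change divided by the root of the F statistic. Sums and ratios were tested by exact permutation (scipy 1.17.1), the ratios with a prior of 0.5 counts. The exon length of a gene is the union of all its annotated exons in GENCODE M21, and promoters come from RefSeq. The script was tested on simulated data.

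Alternatives were DESeq2 1.42.0, limma 3.58.1 on the deposited log2 values, RLE scaling, library size alone, no filter, at least 50 counts in every library, the replicate number as a block, and leaving out libraries. Libraries with the same number deviated together from their fraction means (correlations of 0.45, 0.23 and 0.30 for numbers 1222, 1223 and 1227). The highest correlations with a library of another number were -0.05, 0.02 and 0.02. The labels do not say what a number marks, so pairing is not established. The main test left the number out, and the block is given as an alternative. Members and lists were chosen with earlier results of these data known. Every carrier is named but 1, which is not reported here though the counts and sums include it. Values in every library are given for those past the threshold with a log2 fold change of at least 1 in size, for members of pairs and for the most abundant. Of other lists, the genes that passed with the largest rise and fall are named, and partners of a carrier.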

Additional observations from a re-analysis of the deposited data

How the results depend on the processing

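The count of carriers higher in Positive was 6 and that of carriers lower was 14. It was 6 and 14 as well with RLE scaling, with no filter, with DESeq2 and with the replicate block, 5 and 17 with library size alone, and 8 and 11 with limma. Requiring at least 50 counts in every library left 26 carriers to test, of which 3 were higher and 12 lower. Leaving out 1 library, or both libraries of a number, gave 3 to 5 higher and 9 to 15 lower, with the lowest values (3 and 9) without both 1227 libraries. Directions reversed for 3 carriers, none of which had passed. Slc25a16 was at -0.047 with library size alone, -0.031 with 50 counts in every library, -0.034 without Positive 1223 and -0.144 without both 1223 libraries, and at most 0.248, without both 1227 libraries. Slc25a35 was at 0.013 without Positive 1222 and 0.091 without both 1222 libraries, and at -0.426 without both 1223 libraries. Slc25a15 was at 0.041 without Positive 1223, 0.056 without Input 1227 and 0.006 with limma, and at -0.228 without Input 1223. The cause of these moves was not tested. Library size alone shifted the median of all genes by -0.156 on the log2 scale. The replicate block changed the call of Slc25a22 and Slc25a25 and of no other carrier. The summed level differed by -0.651 to -0.434 on the log2 scale in all settings, and no ratio of a pair changed its sign. With the block, the exact p of the sum and of each ratio was 0.25, the smallest that 3 pairs allow. Depth limits the carriers with few counts in Positive library 1223, such as Slc25a29 with 6, Slc25a27 with 14 and Slc25a13 with 19.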

Other observations

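Lists of other mitochondrial genes gave further values. Both creatine kinases tested were lower in Positive, against 29.4% of all genes. With at least 50 counts in every library only Ckb was left, and it was lower. Ckb, the cytosolic brain form, had 185, 151 and 228 CPM in Positive, against 1556, 1632 and 1939 CPM in Input (log2 fold change -3.18 ± 0.19, edgeR adjusted p = 4.51e-06). Ckmt1, the mitochondrial form that works beside the ADP/ATP carriers, had 0.407, 1.33 and 0.424 CPM in Positive, against 11.7, 11.2 and 14.5 CPM in Input (log2 fold change -4.26 ± 0.48, edgeR adjusted p = 9.66e-05).

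At the outer membrane, 1 of 4 genes was higher and 1 lower (2 lower with the replicate block), with a median log2 fold change of -0.041. Of all genes 26.1% were higher and 29.4% lower. Tspo, a cholesterol-binding protein of that membrane, had 96.3 ± 15.5 CPM in Positive and 41.4 ± 11.2 CPM in Input (SD, n = 3 each, log2 fold change 1.23 ± 0.22, edgeR adjusted p = 0.00131). Vdac1, its main channel for metabolites, had 125 ± 6.51 CPM in Positive and 189.8 ± 6.84 CPM in Input (SD, n = 3 each, log2 fold change -0.60 ± 0.11, edgeR adjusted p = 0.00207). Of 11 genes of mitochondrial protein import, through which the carriers reach the inner membrane, 1 was higher and 1 lower, both under those shares. Tomm20 stood at -0.65 ± 0.14 on the log2 scale (edgeR adjusted p = 0.00384). Tomm70a, the receptor that carrier proteins use, stood at 0.37 ± 0.13 (edgeR adjusted p = 0.0394), and it did not pass without Positive 1222 (0.35), Positive 1227 (0.33), Input 1223 (0.32) or Input 1227 (0.36), nor with library size alone (0.21).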
